A study of Homo sapiens with 8 samples.

Results

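The 32 genes described here encode proteins of homologous recombination, the Fanconi anemia pathway, mismatch repair and the DNA damage checkpoint. They were taken by symbol from a table of 18133 genes, and all 32 were found in it and passed the minimum level for testing, their lowest mean being 473 normalized counts. The cells were DND41, a line established from human T-cell acute lymphoblastic leukemia, after 72 h of doxycycline, which switches on a short hairpin RNA (shRNA). Of the 8 libraries, 3 carried the SIRT1 hairpin sh1, 3 the SIRT1 hairpin sh3 and 2 the control hairpin shC, and all cells received doxycycline. SIRT1 encodes a nuclear NAD-dependent protein deacetylase.

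Homologous recombination copies the sister chromatid to mend a broken chromosome. The MRN complex and its partners cut back the broken end, BRCA1 and BRCA2 help to prepare it for strand invasion, and helicases and nucleases resolve the joined molecules. The Fanconi anemia proteins unhook crosslinks between the DNA strands at stalled replication forks, mismatch repair corrects copying errors, and the kinases ATM and ATR pass the damage signal to CHEK2 and CHEK1. Many of these genes are transcribed in the S phase of the cell cycle under E2F factors. SIRT1 is known to deacetylate several repair proteins, among them the products of NBN and WRN. Protein acetylation was not measured here.

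The libraries' summed normalized counts ran from 33087820 to 34072666, and the depth in reads is unknown. SIRT1 itself (chromosome 10, 67884669 to 67918390, GRCh38) was at 1299.7 ± 36.5 normalized counts for sh1 and 1165 ± 60.1 for sh3 (SD over 3 libraries each), against 1832 ± 123 in the controls (SD over 2 libraries). It was below both controls in all 6 libraries with a SIRT1 hairpin (log2 change -0.57 ± 0.063, SE, limma adjusted p = 3.0e-04). The library sh3 C is titled as a SIRT1 hairpin library, as its genotype also says, while its description names the control hairpin. It was kept with sh3, and across genes its Spearman coefficient was 0.996 with each other sh3 library and 0.991 and 0.992 with the controls. The labels do not say that replicates came from separate infections, so the spread behind the p-values may be technical. Of the T-cell genes CD3E was between 18528 and 26148 normalized counts, while CD2 was at 17.3 to 63.1 and TCF7 at 54.0 to 327. Of the markers of other cell types PAX5, CD14 and EPCAM did not exceed 7.92 in any library. The B lineage gene CD79A was at 17609 to 25708, VIM at 24333 to 26049, PECAM1 at 514 to 806 and KLRD1 at 60.8 to 154. Of 17 markers of other cell types 6 were tested, and over both constructs 0 rose and 2 fell (CD79A and PECAM1). With sh1 alone 2 were called lower and with sh3 alone 0. CD79A was at 17609 to 19281 with sh1 and 23365 to 24766 with sh3, against 23989 and 25708 in the controls. The 17 summed to 42877.6 to 50952.6 in knockdown libraries and 50597.6 to 52736.9 in the controls. The T lineage markers themselves moved with the groups, with 10 of 14 lower and 2 higher in knockdown and a summed level of 83249.9 to 97590.1 in knockdown libraries, against 109834 to 112143 in the controls. Their part in the results was not tested.

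Of the 32 genes 11 rose and 0 fell over the mean of both constructs (limma, adjusted p under 0.05 over all 13885 genes tested), while among all genes tested 6.55% rose and 6.19% fell. By role, 4 of 6 Fanconi genes, 2 of 5 genes of the BRCA1 and BRCA2 axis, 2 of 4 of end resection and 1 of 7 of the checkpoint were among the risers. The risers were BRCA1, BARD1, RAD54L, RAD50, NBN, CLSPN, FANCA, FANCD2, FANCI, BRIP1 and EXO1. Their log2 changes lay between 0.20 for RAD50 and 0.35 for EXO1, that is increases of 14.6% to 27.9%. The median log2 change was 0.16 over the 32 genes and -0.0022 over all genes tested, and 26 of the 32 estimates were above 0. An unadjusted p under 0.05 was reached by 17 of the 32 and, in either direction, by 28.6% of all genes tested. In 15 of the 32 every library with a SIRT1 hairpin lay above both controls, as did 11.9% of all genes tested. Every such library lay below both controls in 0 of the 32, against 1578 of all 13885 genes tested.

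**Figure D1:**
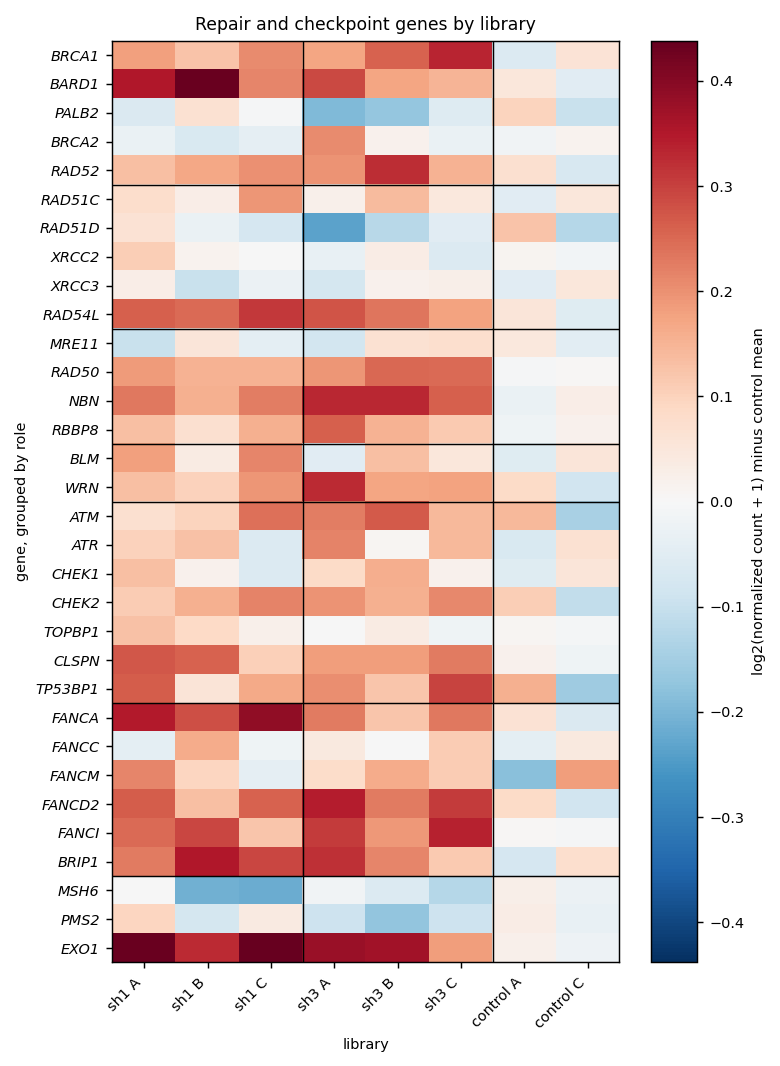
Level of each of the 32 genes (rows, grouped by role) in each of the 8 libraries (columns, sh1, sh3 and control), as log2(normalized count + 1) minus the mean of the 2 controls. Red is above and blue below that mean; the rows of EXO1, FANCA, FANCI, RAD54L and NBN are red in all 6 knockdown libraries, while those of MRE11, XRCC2 and XRCC3 hold both red and blue.

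The 32 genes together made up 0.286% to 0.300% of the normalized counts of the 6 knockdown libraries, against 0.258% and 0.269% in the controls. In bulk RNA a gene's level reflects both the share of cells that transcribe it and the RNA in each cell, and these cannot be told apart, which applies to the share of cells in S phase and in mitosis as well. Genes of the cell cycle were counted beside them. Of 40 genes of DNA replication and S phase 8 rose and 0 fell, with a summed level of 309032 to 319212 normalized counts in knockdown libraries and 299210 to 299230 in the controls. Of 30 genes of G2 and mitosis 13 rose and 0 fell, with a summed level of 280129 to 288851 in knockdown libraries and 257553 to 258280 in the controls. Their part in the change of the repair genes was not tested.

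The calls rest on 2 control libraries. Without a trend in the variance prior 4 of the 11 were called (RAD54L, RAD50, NBN and EXO1), and the share of all genes called higher dropped to 2.43%. Without control C only NBN of the 11 was called (limma adjusted p 0.047 to 0.22 over the 11), and the share of all genes called higher dropped as well, to 1.04%. Without control A most of the 11 lost their calls, as did other genes tested, and the log2 changes of the 11 lay between 0.15 and 0.38. Those of ATM, CHEK2 and TP53BP1 were then 0.32, 0.28 and 0.34. BRCA1 lost its call without sh3 B, and CLSPN and BRIP1 lost theirs without sh1 B. Without sh3 C all 11 were called. The estimates of the 11 remained positive when any of the 8 libraries was left out, between 0.15 and 0.39 on the log2 scale.

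Among the genes that rose, 9 have an annotated promoter window in RefSeq on GRCh38.p14, 12 windows in all, each from 250 bases before to 50 after a transcription start. They were searched on both strands for the E2F words TTTCCCGC, TTTGGCGC, TTTCGCGC and TTTGCCGC, since E2F factors are the textbook regulators of S phase transcription. A word was present in 4 of the 12 windows, those of CLSPN, EXO1, FANCD2 and FANCA, printed here 5′ to 3′ along the gene with the E2F word in capitals.
CLSPN, chr1:35769929-35770228, minus strand: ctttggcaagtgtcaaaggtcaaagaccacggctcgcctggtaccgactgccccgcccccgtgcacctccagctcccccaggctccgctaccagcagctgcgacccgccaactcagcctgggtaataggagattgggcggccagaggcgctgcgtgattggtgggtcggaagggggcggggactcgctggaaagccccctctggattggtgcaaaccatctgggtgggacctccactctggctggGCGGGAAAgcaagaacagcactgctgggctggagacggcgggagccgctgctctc
EXO1, chr1:241847954-241848253, plus strand: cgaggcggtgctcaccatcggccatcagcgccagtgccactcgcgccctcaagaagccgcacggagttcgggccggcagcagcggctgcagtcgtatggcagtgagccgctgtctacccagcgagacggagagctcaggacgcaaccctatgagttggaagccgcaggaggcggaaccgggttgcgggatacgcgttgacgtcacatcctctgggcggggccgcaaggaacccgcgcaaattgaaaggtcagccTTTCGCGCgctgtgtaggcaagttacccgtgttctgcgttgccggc
FANCD2, chr3:10026187-10026486, plus strand: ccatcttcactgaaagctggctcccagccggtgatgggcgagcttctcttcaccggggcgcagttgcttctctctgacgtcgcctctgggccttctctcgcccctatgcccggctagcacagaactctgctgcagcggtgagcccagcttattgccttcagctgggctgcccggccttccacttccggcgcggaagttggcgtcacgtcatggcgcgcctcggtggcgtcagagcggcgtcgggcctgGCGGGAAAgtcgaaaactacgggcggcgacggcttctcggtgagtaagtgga
FANCA, chr16:89816598-89816897, minus strand: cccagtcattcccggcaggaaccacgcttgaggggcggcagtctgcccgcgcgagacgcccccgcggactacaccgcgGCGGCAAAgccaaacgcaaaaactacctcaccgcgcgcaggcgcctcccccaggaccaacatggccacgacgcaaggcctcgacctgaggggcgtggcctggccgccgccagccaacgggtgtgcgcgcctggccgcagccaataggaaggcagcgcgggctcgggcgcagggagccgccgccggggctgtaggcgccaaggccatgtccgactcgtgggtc

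Counted from the start site, the word began at base -5 in CLSPN, 5 in EXO1, -2 in FANCD2 and -172 in FANCA. In CLSPN it overlaps a GGGCGG word, the core of the Sp1 site. Among the windows of members that did not pass the test, 6 of 32 held an E2F word, and of all 35116 windows 3.31% did. GGGCGG was present in 10 of the 12 windows of risers and in 23 of the 32 windows of the other members, against 45% of all windows. CCAAT, the word bound by NF-Y, was present in 6 of 12 and in 15 of 32, against 34.6% of all. TTTGAA, the CHR element of genes of G2 and mitosis, was present in 1 of 12 and 2 of 32, against 15.2% of all. These matches describe the letters in the windows, and binding was not measured.

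BRCA1 and BARD1, which form a heterodimeric ubiquitin ligase that directs breaks to recombination, both rose. BRCA1 (chromosome 17, 43044295 to 43170245) had 3394, 3264 and 3455 normalized counts with sh1 and 3374, 3579.8 and 3774 with sh3, against 2873 and 3122 in the controls. BARD1 (chromosome 2, 214725646 to 214809711) had 2668, 2829 and 2428 normalized counts with sh1 and 2557, 2357 and 2324 with sh3, against 2168 and 2021 in the controls. For both genes all 6 knockdown libraries lay above both controls. The log2 change was 0.21 ± 0.055 for BRCA1 (SE, limma adjusted p = 0.029). It was 0.27 ± 0.066 for BARD1 (SE, limma adjusted p = 0.022). BRCA2, which acts on the resected single-stranded DNA, and PALB2, which bridges BRCA1 and BRCA2, did not pass the test. BRCA2 (chromosome 13, 32315474 to 32400266) had 1544, 1504 and 1536 normalized counts with sh1 and 1820.2, 1599.5 and 1545 with sh3, against 1562 and 1592 in the controls, and the groups overlapped. The interval of its log2 change was -0.13 to 0.15 (95%, limma), so that a rise of the size seen for BARD1 lies outside it. For PALB2 the interval was -0.23 to 0.085. RAD52, an annealing factor that can back up BRCA2, stood at 1058 ± 25.2 normalized counts for sh1 and 1101 ± 68.9 for sh3 (SD over 3 libraries each), against 943 ± 64.1 in the controls (SD over 2 libraries). All 6 knockdown libraries exceeded both controls in RAD52, yet the log2 change of 0.20 ± 0.068 missed the threshold (SE, limma adjusted p = 0.083).

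RAD54L, a DNA translocase of strand invasion, was the riser among the 5 genes of its role. RAD54L (chromosome 1, 46247688 to 46278473) had 4156, 4119.7 and 4296 normalized counts with sh1 and 4192, 4075 and 3919 with sh3, against 3593 and 3341 in the controls. The lowest knockdown library was above the higher control, and the log2 change was 0.25 ± 0.048 (SE, limma adjusted p = 0.0071). The other 4, which assist strand exchange, did not pass the test. Their log2 changes were 0.085 for RAD51C, -0.073 for RAD51D, 0.011 for XRCC2 and -0.021 for XRCC3 (limma adjusted p between 0.43 and 0.91), and in each of the 4 the groups overlapped. XRCC2 had the narrowest interval of the 4, -0.10 to 0.12 on the log2 scale.

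Of the MRN complex, which senses breaks and starts resection, RAD50 and NBN rose and MRE11 did not pass the test. RAD50, its coiled-coil ATPase (chromosome 5, 132556019 to 132646344), had 2715, 2653 and 2652 normalized counts with sh1 and 2725, 2839.6 and 2832 with sh3, against 2379 and 2392 in the controls. NBN, the subunit that recruits ATM (chromosome 8, 89933336 to 90003228), had 3144, 2979 and 3124 normalized counts with sh1 and 3364, 3363 and 3211 with sh3, against 2625 and 2730.4 in the controls. Both lay above the controls in every knockdown library, with log2 changes of 0.20 ± 0.045 for RAD50 and 0.25 ± 0.047 for NBN (SE, limma adjusted p = 0.016 and 0.0059). MRE11, the nuclease (chromosome 11, 94415578 to 94493908), had 3355, 3719 and 3479 normalized counts with sh1 and 3388, 3759.6 and 3772 with sh3, against 3703 and 3474 in the controls. Its groups overlapped, with a log2 change of -0.0048 and an interval of -0.13 to 0.12 (95%, limma). RBBP8, which encodes the resection factor CtIP, was at 3388 ± 104 normalized counts for sh1 and 3527 ± 186 for sh3 (SD over 3 libraries each), against 3118 ± 62.8 in the controls (SD over 2 libraries). Each knockdown library exceeded both controls in RBBP8, and the log2 change of 0.15 ± 0.051 had a limma adjusted p of 0.080. It passed the threshold when values were scaled to an equal sum per library (0.17, limma adjusted p = 0.045).

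The RecQ helicases BLM and WRN, which unwind recombination intermediates, did not pass the test over both constructs. WRN was at 2328 ± 76.1 normalized counts for sh1 and 2468 ± 153 for sh3 (SD over 3 libraries each), against 2112 ± 170.1 in the controls (SD over 2 libraries). Its 6 knockdown libraries exceeded both controls, and the log2 change was 0.18 ± 0.062 (SE, limma adjusted p = 0.076). BLM had a log2 change of 0.094 ± 0.068 (SE, limma adjusted p = 0.40), and its groups overlapped.

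In the damage checkpoint the adaptor of CHEK1, claspin, rose while the kinases did not pass the test. CLSPN (chromosome 1, 35720218 to 35769967) had 4384, 4346 and 3904 normalized counts with sh1 and 4119, 4121 and 4247 with sh3, against 3675 and 3584 in the controls. All 6 knockdown libraries were above both controls, with a log2 change of 0.20 ± 0.052 (SE, limma adjusted p = 0.025). The log2 change was 0.059 ± 0.060 for CHEK1, 0.090 ± 0.072 for ATR, the kinase of stalled forks, and 0.042 ± 0.042 for TOPBP1, the activator of ATR (SE, limma adjusted p between 0.45 and 0.57). The groups overlapped in all 3. On the branch of double-strand breaks, the log2 change was 0.17 ± 0.076 for ATM, 0.17 ± 0.062 for CHEK2 and 0.19 ± 0.083 for TP53BP1, which shields ends from resection (SE, limma adjusted p of 0.16, 0.086 and 0.17). The controls were far apart in these 3 genes, and only in CHEK2 did all 6 knockdown libraries exceed both. ATM had 2548 normalized counts in control A and 2090.4 in control C, and TP53BP1 had 2675 and 2154. CHEK2 had 2019 in control A and 1741 in control C.

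Of the 6 genes of the Fanconi pathway 4 rose. FANCA, a subunit of the core complex that acts as the pathway's ubiquitin ligase (chromosome 16, 89737549 to 89816657), had 3784, 3616 and 3896 normalized counts with sh1 and 3486, 3231 and 3488 with sh3, against 3106 and 2847 in the controls. Its log2 change was 0.27 ± 0.054 (SE, limma adjusted p = 0.0095). FANCD2 and FANCI, the pair that the core complex marks with ubiquitin at a crosslink, both rose. FANCD2 (chromosome 3, 10026414 to 10101930) had 5415, 4929.8 and 5389 normalized counts with sh1 and 5720.0, 5278 and 5566 with sh3, against 4772 and 4249.8 in the controls. FANCI (chromosome 15, 89243949 to 89317261) had 8694, 8978 and 7980.3 normalized counts with sh1 and 9059, 8353 and 9250.3 with sh3, against 7353 and 7303 in the controls. The log2 changes were 0.26 ± 0.058 for FANCD2 and 0.25 ± 0.054 for FANCI (SE, limma adjusted p = 0.016 and 0.013). BRIP1, the BRCA1-binding helicase also called FANCJ (chromosome 17, 61681266 to 61863521), had 2676, 2917 and 2802 normalized counts with sh1 and 2856, 2655 and 2474 with sh3, against 2174 and 2406 in the controls. It changed by 0.25 ± 0.065 (SE, limma adjusted p = 0.026), and in all 4 genes every knockdown library was above both controls. FANCC, another core subunit, and FANCM, the translocase that anchors the core complex on DNA, did not pass the test, with log2 changes of 0.043 ± 0.085 and 0.10 ± 0.098 (SE, limma adjusted p of 0.79 and 0.54). These were the least abundant of the 32 by normalized counts, and their intervals of -0.14 to 0.23 for FANCC and -0.11 to 0.32 for FANCM were the widest, so that a rise of the size of FANCA's lies inside that of FANCM.

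EXO1, the exonuclease shared by mismatch repair and resection, had the largest change of the 32. EXO1 (chromosome 1, 241847967 to 241895148) had 3036, 2827 and 3050.1 normalized counts with sh1 and 2924, 2907 and 2558 with sh3, against 2288 and 2215 in the controls. The lowest knockdown library exceeded the higher control, and the log2 change was 0.35 ± 0.061 (SE, limma adjusted p = 0.0042). MSH6, which recognises mismatches, had the lowest estimate of the 32. MSH6 (chromosome 2, 47695530 to 47810101) had 7846, 6781 and 6745 normalized counts with sh1 and 7767, 7534 and 7191 with sh3, against 7988 and 7711 in the controls. The groups overlapped, and the log2 change of -0.11 ± 0.060 did not pass the test (SE, limma adjusted p = 0.27). Without sh1 A, the highest sh1 library, MSH6 was called lower (-0.14, limma adjusted p = 0.0498). PMS2, a subunit of the endonuclease that acts after mismatch recognition, had a log2 change of -0.050 ± 0.060 (SE, limma adjusted p = 0.64), and its reads could be shared with 11 annotated pseudogenes.

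**Figure D2:**
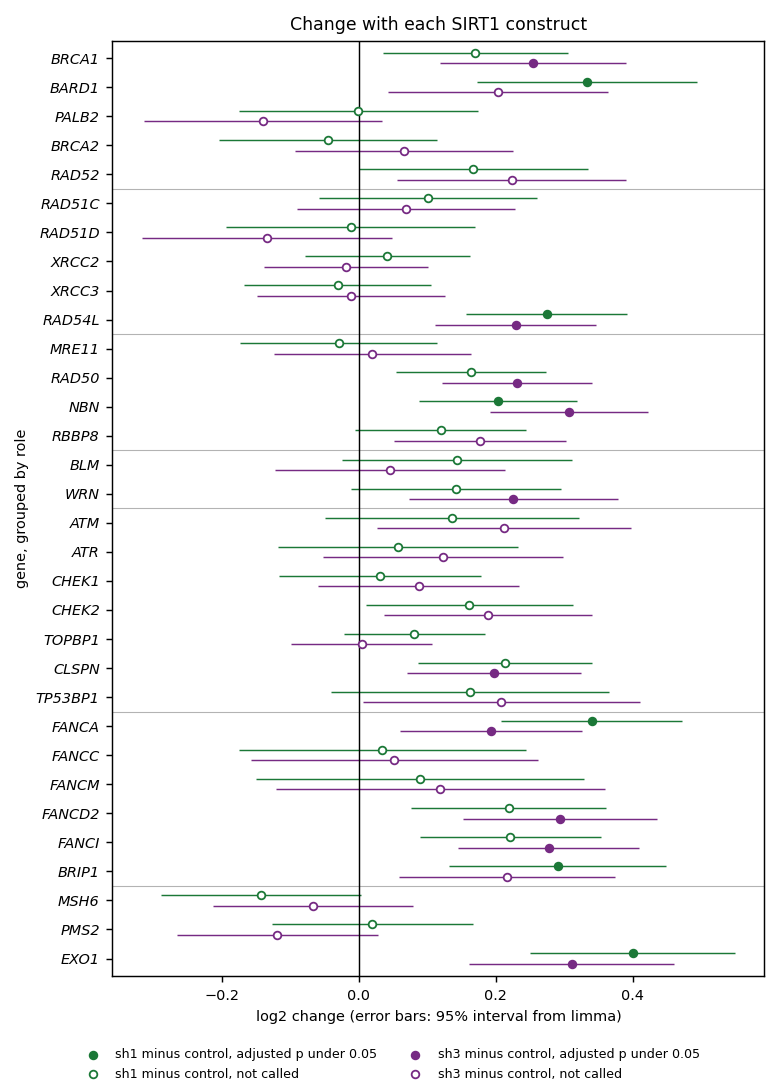
Log2 change of each of the 32 genes with sh1 (green) and with sh3 (purple) against the same 2 controls; points are limma estimates, bars 95% intervals, and filled points passed an adjusted p of 0.05. Filled points lie to the right of 0 for 6 genes with sh1 and 10 with sh3, and EXO1 reaches 0.40 and 0.31.

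Each construct was also set against the controls alone, the comparisons sharing the same 2 control libraries. With sh1 6 of the 32 genes rose and 0 fell, while 2.88% of all genes tested rose and 3.43% fell. With sh3 10 rose and 0 fell, while 9.36% of all genes tested rose and 9.19% fell. RAD54L, NBN, FANCA and EXO1 were called with both constructs. BARD1 and BRIP1 were called with sh1 and not with sh3, where their limma adjusted p were 0.077 and 0.059. BRCA1, RAD50, WRN, CLSPN, FANCD2 and FANCI were called with sh3 and not with sh1, where adjusted p lay between 0.053 for CLSPN and 0.26 for WRN. The calls with sh1 numbered 0 without a trend in the variance prior and 0 without control C, so that under either setting no gene was called with both constructs. The calls with sh1 were also fewer without control A, and numbered 3 without sh1 B. There 377 of all genes were called in either direction with sh1, against 876 in the main fit. The calls with sh3 numbered 3 without a trend, 6 without sh3 A and 9 without sh3 C, and were fewer without control C. Of all genes 1531 were called with sh3 without a trend and 1537 without sh3 A, against 2576 in the main fit. In the test of the difference between the constructs 0 of the 32 passed, with 3 at an unadjusted p under 0.05 against 26.0% of all genes tested, while 5.61% of all genes tested were higher and 5.83% lower with sh1 than with sh3. The same test without a trend in the variance prior called 0 as well, with 1 of the 32 at an unadjusted p under 0.05.

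FANCA had the largest difference between the constructs. Its log2 change was 0.34 ± 0.060 with sh1 and 0.19 ± 0.060 with sh3 (SE), a difference of 0.15 ± 0.054 with an interval of 0.028 to 0.27 (95%, limma adjusted p = 0.11). All 3 sh1 libraries exceeded all 3 sh3 libraries in FANCA. NBN ran the other way, with 0.20 ± 0.052 for sh1 and 0.31 ± 0.052 for sh3 and a difference of -0.10 ± 0.047 (SE, limma adjusted p = 0.19). PMS2 differed by 0.14 ± 0.060 (SE, limma adjusted p = 0.17). For the other 29 genes the unadjusted p of the difference was 0.05 or more, and the estimates lay between -0.11 and 0.14 on the log2 scale.

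Partner genes whose proteins act in a shared complex were compared within each library, which removes the scaling of libraries. The pairs were chosen after their values were seen, and ratios of normalized counts also carry the genes' lengths. The ratio of RAD50 to MRE11 was 0.809, 0.713 and 0.762 with sh1 and 0.804, 0.755 and 0.751 with sh3, against 0.642 and 0.689 in the controls. The ratio of NBN to MRE11 was 0.937, 0.801 and 0.898 with sh1 and 0.993, 0.894 and 0.851 with sh3, against 0.709 and 0.786 in the controls. In both ratios all 6 knockdown libraries lay above both controls. With 6 libraries against 2, a two-sided exact permutation test cannot give a p below 0.071, and both ratios reached that value (0.14 adjusted over the 6 pairs computed). The ratios of BARD1 to BRCA1, FANCD2 to FANCI and BRCA2 to PALB2 overlapped between the groups, with exact permutation p of 0.71, 0.93 and 0.71. FANCD2 over FANCI lay between 0.549 and 0.675 in knockdown libraries and between 0.582 and 0.649 in the controls.

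**Figure D3:**
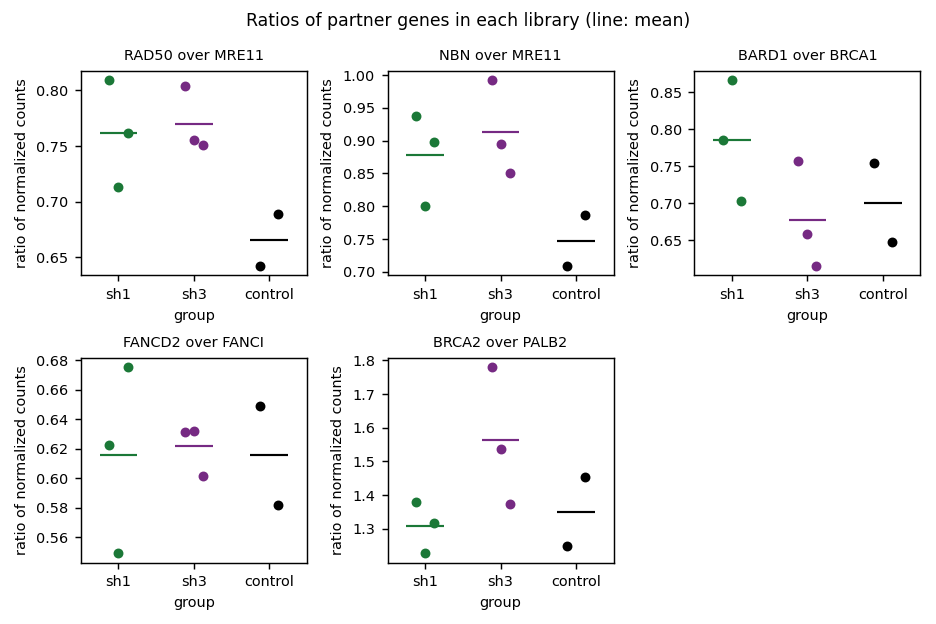
Ratio of normalized counts of 5 pairs of partner genes (vertical axis, a separate scale that does not start at 0 in each panel) in each library of sh1, sh3 and control; points are libraries and lines group means. RAD50 over MRE11 and NBN over MRE11 are higher in all 6 knockdown libraries, and the points of the other 3 pairs overlap.

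Per kilobase of the longest principal transcript in GENCODE 29, the levels of the 32 genes spanned a wide range. The most abundant was FANCI, with 1850.0 with SIRT1 hairpins and 1555 in the controls (normalized counts per kilobase), followed in knockdown by TOPBP1 with 1371 with SIRT1 hairpins and 1330.2 in the controls and RAD54L with 1328 with SIRT1 hairpins and 1116 in the controls. The scarcest was FANCC, with 104 with SIRT1 hairpins and 101 in the controls, then FANCM with 116 with SIRT1 hairpins and 109 in the controls and BRCA2 with 133 with SIRT1 hairpins and 132 in the controls. The transcripts counted by the authors may differ in length from these, which would shift a gene's level and not its change. Several of the 32 genes overlap another gene, among them RAD54L with LRRC41, NBN with DECR1, FANCA with ZNF276, FANCI with POLG and BRCA1 with its antisense neighbour NBR2. RAD50 overlaps the coding gene AC116366.3, which had 2280 normalized counts in knockdown and 2527 in the controls (log2 change -0.15). How reads were divided between RAD50 and AC116366.3 was not tested. Libraries were strand-specific per the labels' protocols, while the sources used here do not say whether counting used the strand. CHEK2 has 4 annotated pseudogenes, and FANCD2, MRE11 and RBBP8 have 1 each, with which reads could be shared.

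Other genes of the same pathways were counted from lists of their own, to be read against the 6.55% of all genes tested that rose and the 6.19% that fell. Of 18 further Fanconi genes 6 (33.3%) rose and 0 fell. They include UBE2T, the ubiquitin-conjugating enzyme of the core complex, at 3588 ± 406 normalized counts for sh1 and 3644 ± 151 for sh3 (SD over 3 libraries each), against 2951 ± 14.2 in the controls (SD over 2 libraries), and WDR48, the partner of the deubiquitinase USP1, at 2575 ± 227 normalized counts for sh1 and 2689 ± 129 for sh3 (SD over 3 libraries each), against 2058 ± 147 in the controls (SD over 2 libraries). SLX4IP, which binds the nuclease scaffold SLX4, rose as well (0.29 ± 0.082, SE, limma adjusted p = 0.038), as did FANCB, USP1 and RFWD3, which are named to complete the count. Of 41 further recombination genes 8 (19.5%) rose and 1 fell. The leading risers were EME1, a subunit of a nuclease that cuts recombination intermediates (0.33 ± 0.064), NABP1, a single-strand DNA binding protein (0.40 ± 0.092), and MCM8, a helicase of recombination (0.21 ± 0.049), with limma adjusted p of 0.0082, 0.016 and 0.018. The gene that fell, named after its value was seen, was SEM1, which binds BRCA2 and is also a proteasome subunit (-0.18 ± 0.053, SE, limma adjusted p = 0.044). 

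Of 16 genes of BRCA1 complexes and ubiquitin signalling at breaks 2 (12.5%) rose and 0 fell, namely MDC1, the scaffold that binds phosphorylated H2AX, and RIF1, an effector of TP53BP1. MDC1 was at 3263 ± 42.1 normalized counts for sh1 and 3909 ± 87.1 for sh3 (SD over 3 libraries each), against 2828 ± 34.4 in the controls (SD over 2 libraries). RIF1 changed by 0.20 ± 0.051 (SE, limma adjusted p = 0.025). Of 7 further mismatch repair genes 2 (28.6%) rose and 0 fell, among them the meiotic homolog MSH5 (0.41 ± 0.10, SE, limma adjusted p = 0.024), in which the groups overlapped. Of 27 further checkpoint genes 3 (11.1%) rose and 0 fell, against 6.55% of all genes higher. They were CDC7, the kinase that fires origins (0.35 ± 0.050), RAD18, a ubiquitin ligase of stalled forks (0.37 ± 0.095), and CDC25A, the phosphatase that CHEK1 restrains (0.25 ± 0.060), with limma adjusted p of 0.0017, 0.028 and 0.023. In CDC25A the groups overlapped, sh1 C (2587) lying below control C (2591), and it was not called with sh1 alone (limma adjusted p = 0.21). Among the cell cycle genes the smallest p belonged to E2F8 (0.48 ± 0.060), RRM2 (0.25 ± 0.040) and ORC1 (0.29 ± 0.053) for replication and to TTK (0.35 ± 0.046), NDC80 (0.31 ± 0.045) and PRC1 (0.34 ± 0.059) for mitosis (limma adjusted p at most 0.0056). Of the 19 genes that the naming rule took from these lists, 6 were called without control C (MDC1, CDC7, E2F8, RRM2, TTK and NDC80). Without control A 11 were called, those of RIF1, NABP1, MCM8, UBE2T, SLX4IP, CDC25A and RAD18 being among the calls lost. SLX4IP also lost its call without any single library other than sh3 A. RIF1 lost its call without sh3 A or sh3 B, and UBE2T, MSH5 and RAD18 lost theirs without sh3 A.

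**Figure D4:**
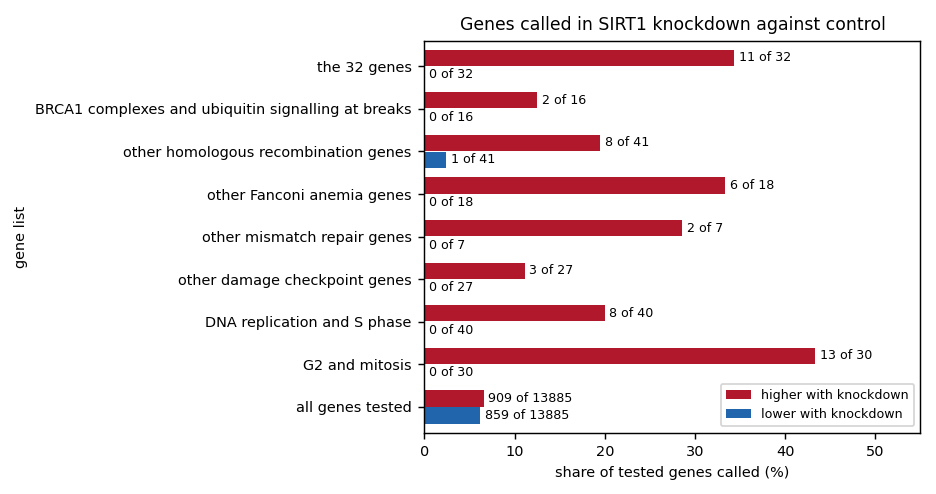
Share of tested genes called higher (red) or lower (blue) in SIRT1 knockdown against control at an adjusted p under 0.05 (limma), for the 32 genes, 7 other gene lists and all 13885 genes tested; labels give the counts. The 32 genes reach 34.4% higher, the G2 and mitosis list 43.3% and all genes 6.55%.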

How the data were processed

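Messenger RNA of DND41 cells was measured by RNA-seq in 8 libraries, grouped by their titles into sh1, sh3 and shC. The deposited values are a signal, normalized counts for each gene symbol. Kallisto 0.44.0, DESeq and hg38 appear in the submitters' processing notes, while the sources used here name neither the transcript annotation nor any filter. The deposited values are not whole numbers. In each library 23.2% to 40.3% of low values came within 0.02 of a multiple of the smallest step, so reads could not be recovered and no test for counts or counting interval was used.

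The 13885 genes whose mean over all libraries was 10 or more were tested on the log2(value + 1) scale, which understates changes of low genes, and 4248 rows were removed. Group means were fitted with limma 3.58.1 (R 4.3.3, variance prior with trend, 5 residual degrees of freedom). Knockdown is the equal mean of sh1 and sh3. Each construct was also compared with control and with the other construct. Tests were two-sided, with Benjamini-Hochberg adjustment over all genes tested. The fit was tested on simulated data in which 200 of 13885 genes were changed, fewer than were called here. It recovered 20% of those changed by 0.25 on the log2 scale and 48% of those changed by 0.5. The changed genes were drawn from all genes tested, whose median SE in knockdown was 0.081, against 0.060 for the 32 genes. These shares therefore do not give the recovery for the 32, and a gene that did not pass the test may still have changed.

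All 32 genes and SIRT1 are named, with up to 3 genes of smallest p among those called in each of 7 lists of other repair, replication and mitosis genes. The 32 genes and the lists were chosen with earlier results of these data known. Gene positions are from GENCODE 29 on GRCh38 (also called hg38), and promoter windows from RefSeq on GRCh38.p14, where 29 of the 32 genes had one. Of the genes in these lists and the 6 pairs of partner genes, some results are not reported here. Alternatives changed the pseudocount, the filter, the scaling, the variance prior, the replicate block and the libraries.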

Additional observations from a re-analysis of the deposited data

Results flagged for a closer look

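Of the 32 genes, 0 differed between the constructs by the test of the difference. Among the other repair and cell cycle genes named, 2 did. MDC1 differed by -0.26 ± 0.043 on the log2 scale (sh1 minus sh3, SE, limma adjusted p = 0.0025), its changes against control being 0.21 with sh1 and 0.47 with sh3. MSH5 differed by -0.57 ± 0.1 (SE, limma adjusted p = 0.0041), with 0.12 for sh1 and 0.69 for sh3 against control. Groups of 2 or 3 libraries are too small for a search for outlying samples.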

How the results depend on the processing

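The count of 11 risers did not change with another pseudocount or without a filter on low values. It was 11 with an equal upper quartile per library and 12 with an equal sum per library. With a mean of at least 50 it was also 11, while 8.96% of genes then tested rose, against 6.55% in the main fit. Without a trend in the variance prior 4 of the 32 genes rose (744 of all genes were called), 0 with sh1 (236) and 3 with sh3 (1531), and 968 of all genes differed between the constructs. Leaving out 1 library at a time gave 1 to 11 risers and 0 to 1 falls, 0 to 6 risers and 0 to 1 falls with sh1, and 2 to 11 risers with sh3. All genes called then numbered 339 to 1898 in knockdown, 159 to 782 with sh1, 860 to 2931 with sh3 and 925 to 1770 between constructs. The median log2 change of the 32 genes lay between 0.13 and 0.17. Where a control is left out, the lone control is assumed to vary like the other groups, and fewer samples are tested; other causes were not tested.

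Deviations of same-lettered libraries (A, B or C) correlated between -0.062 and 0.058, so no strong pairing by letter was seen. These correlations cannot show whether libraries of a letter were prepared together. With the letter as a replicate block 9 of the 32 genes rose (CLSPN and BRIP1 did not pass), and 1292 genes were called in knockdown and 549 with sh1.

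Estimates near 0 changed sign in genes that did not pass the test. With an equal upper quartile BRCA2 was at -0.0094 and XRCC2 at -0.0085, and with an equal sum MRE11 was at 0.014 on the log2 scale. With 1 library left out, log2 changes ranged from -0.17 to 0.026 for PALB2, -0.025 to 0.034 for BRCA2, -0.20 to 0.051 for RAD51D, -0.0059 to 0.022 for XRCC2, -0.072 to 0.030 for XRCC3, -0.051 to 0.041 for MRE11, -0.00043 to 0.086 for FANCC and -0.080 to 0.29 for FANCM.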
